A study of Mus musculus with 21 samples.

Results

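The genes described here encode 10 proteins that burn fatty acids in mitochondria, a pathway called mitochondrial beta-oxidation: *Cpt1b*, *Cpt2*, *Acadvl*, *Acadl*, *Acadm*, *Hadha*, *Hadhb*, *Acaa2*, *Etfdh* and *Decr1*. They were listed by name as enzymes of the pathway, with earlier results of these data known, and every probe that the platform table maps to them was read. These are 10 of 19057 gene symbols in that table and 22 of 45281 probes on the array. Of the 22 probes, 19 gave a detection p (the p-value with which a probe is called above the negative controls) under 0.01 on at least 3 arrays. The 3 that never did were 1 of 3 for *Acadl* and 2 of 4 for *Etfdh*, so each gene kept at least 1 probe.

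Total RNA from 21 mouse tissue samples was measured on Illumina bead arrays, with mice of a mixed C57Bl/6 and 129X1/SvJ strain in all 3 groups. The SmoM2 allele, an activated form of the Hedgehog pathway protein Smoothened, was carried by every animal, controls included. In 15 tumors of genotype aP2-Cre/+;SmoM2/+ the Cre recombinase was driven by the promoter of the fat cell gene *Fabp4* (aP2), and in 3 tumors of genotype Myogenin-Cre/+;SmoM2/+ by that of *Myog*, a factor of differentiating muscle cells. The 3 controls were SmoM2/+ sternocleidomastoid, a muscle of the neck, with no Cre named. The labels give no age or sex. They number a mouse for each tumor but do not say whether the 3 muscle samples came from separate animals, so their spread may be technical and p-values against muscle may miss differences between mice. The labels place the origin of the aP2-Cre tumors in aP2-expressing cells and name no cell type, and the muscle is whole tissue.

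As background, a long-chain fatty acid enters the mitochondrion bound to carnitine and is then shortened in repeated rounds of dehydrogenation, hydration, dehydrogenation and thiolysis, each round giving acetyl-CoA and reduced electron carriers for the respiratory chain. Resting and endurance-trained muscle, heart and brown fat rely on this pathway. Its genes are known targets of the nuclear receptors of the PPAR and ERR families with the coactivator PGC-1alpha (*Ppargc1a*).

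Levels below are log2 intensities after background correction and quantile normalization over the 21 arrays, read from the probe with the highest mean for each gene. A level is compared between arrays and not between genes, apart from remarks on how bright a probe is. Summed linear levels of marker lists add over genes, so the brightest probes weigh most in them. Differences were tested with limma over all 11034 genes with a kept probe, and a gene is called higher or lower at a Benjamini-Hochberg adjusted p under 0.05. Per array, 32.0% to 39.8% of probes were detected. Of 11 measured genes of mature muscle fibers 10 were lower in aP2-Cre tumors than in muscle (6 with the array set as a covariate, without *Atp2a1*, *Myh1*, *Tnni2* and *Pvalb*), and 5 of 6 genes of developing muscle were higher in either kind of tumor. The muscle arrays also gave high levels for genes of fat cells. *Ucp1*, which defines brown fat, stood at 10.93, 12.13 and 11.29 in muscle, at 4.41 to 5.48 in Myogenin-Cre tumors and at 4.28 to 6.78 in aP2-Cre tumors. Among the tumors it was detected only in Myogenin-Cre tumor 42 and aP2-Cre tumors 104 and 165. The values of the other tumors are background. *Adipoq*, a hormone of fat cells, stood at 11.69 to 12.07 in muscle, at 8.82 to 9.40 in Myogenin-Cre tumors and at 6.43 to 9.79 in aP2-Cre tumors. The authors had normalized 5 sets of arrays separately. All muscle arrays share set 1 with aP2-Cre tumors 128, 135 and 140, and all Myogenin-Cre tumors share set 3 with aP2-Cre tumors 89, 90 and 95.

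Promoter windows of 7 of the 10 genes, from 250 bases before the annotated start, were found in the RefSeq table of GRCm38.p6. *Cpt1b*, *Acaa2* and *Decr1* had no entry. Stretches of 4 windows are shown, those with a match to a motif named below and the region between *Hadha* and *Hadhb*. Whether any site bears on the levels of these genes was not tested. Each window was searched on both strands for AGGTCA, the half-site that nuclear receptors share, AAGGTCA, its ERR type extension, which contains AGGTCA, AGGTCANAGGTCA, the PPAR type repeat, and GCGCATGCG, the core of the site of the mitochondrial gene regulator NRF1. The 60-base to 250-base stretches below lie upstream of the start on the strand of the gene, and capitals mark matches, which may lie on either strand.
Acadm, chr3:153944774-153944893, minus strand: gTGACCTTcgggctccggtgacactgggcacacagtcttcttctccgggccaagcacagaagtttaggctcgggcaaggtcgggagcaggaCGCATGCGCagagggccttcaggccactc
Etfdh, chr3:79628868-79628927, minus strand: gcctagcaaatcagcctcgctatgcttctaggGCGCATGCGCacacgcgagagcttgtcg
Acadvl, chr11:70015479-70015538, minus strand: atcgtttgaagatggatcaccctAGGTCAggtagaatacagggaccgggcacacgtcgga
Between Hadha and Hadhb, chr5:30155003-30155252, plus strand: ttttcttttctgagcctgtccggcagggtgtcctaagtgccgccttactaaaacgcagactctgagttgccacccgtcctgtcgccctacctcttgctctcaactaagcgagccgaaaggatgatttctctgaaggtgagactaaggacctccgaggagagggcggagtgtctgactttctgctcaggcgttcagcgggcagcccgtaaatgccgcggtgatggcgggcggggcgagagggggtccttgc
*Acadm* held AAGGTCA on the opposite strand 249 to 243 bases before its start and GCGCATGCG, also on the opposite strand, 159 to 151 bases before it. *Etfdh* held GCGCATGCG on both strands, in matches that overlap by 8 bases, and *Acadvl* held AGGTCA 87 to 82 bases before its start. Of 32851 windows of the same length, 16.3% held AGGTCA, 4.72% AAGGTCA, 0.0396% AGGTCANAGGTCA and 1.75% GCGCATGCG. Of the 7 windows of these genes, 2 held AGGTCA, 1 AAGGTCA, 0 the repeat and 2 GCGCATGCG. *Hadha* and *Hadhb* point away from each other on chromosome 5, with 272 bases between their annotated starts, so their windows share 228 bases, in which none of the 4 motifs was found.

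All 10 genes were lower in aP2-Cre tumors than in muscle, between 2.69-fold for *Hadha* and 9.89-fold for *Acaa2*, and all 10 were higher in Myogenin-Cre than in aP2-Cre tumors, between 2.02-fold and 3.81-fold. Myogenin-Cre tumors lay below muscle for 9 of 10 genes, but the test called only 4 of them: *Acadm*, *Hadhb*, *Acaa2* and *Decr1*. Among all genes, 29.8% were called lower and 34.0% higher in aP2-Cre tumors than in muscle, 23.9% lower and 25.2% higher in Myogenin-Cre tumors than in muscle, and 7.68% higher and 8.08% lower in Myogenin-Cre than in aP2-Cre tumors. Both comparisons with muscle share its 3 arrays. In these bulk samples, fewer cells that express a gene and less of its RNA per cell cannot be told apart. The median log2 change of the 10 genes was -1.91 between aP2-Cre tumors and muscle, -0.73 between Myogenin-Cre tumors and muscle and 1.21 between the tumors, beside 0.09, 0.06 and -0.01 over all genes.

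**Figure D1:**
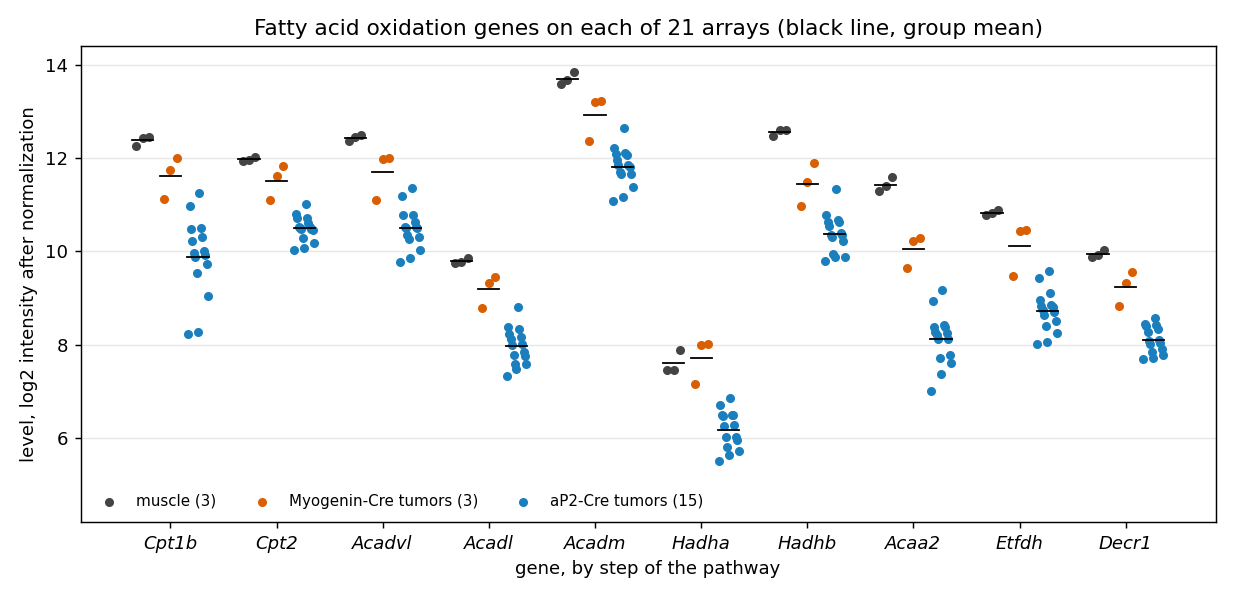
Level (log2 intensity after normalization) of the 10 genes on each of the 21 arrays, ordered by step of the pathway, with 1 point per array and a black line at each group mean. For every gene the 15 aP2-Cre tumors (blue) lie below the 3 muscle arrays (gray), and 1 Myogenin-Cre tumor (orange), number 42, lies below the other 2.

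The carnitine shuttle is made of *Cpt1b*, the muscle form of the enzyme that attaches carnitine at the outer membrane and is held to be the controlled step, and *Cpt2*, which removes it inside. *Cpt1b* had levels of 12.42, 12.26 and 12.45 in muscle, of 11.99, 11.12 and 11.74 in Myogenin-Cre tumors 41, 42 and 43, and of 8.23 (tumor 174) to 11.25 (tumor 128) with a median of 9.96 in aP2-Cre tumors. Every tumor lay below every muscle array, and the highest aP2-Cre tumor stood above Myogenin-Cre tumor 42. Its level was 5.62-fold lower in aP2-Cre tumors than in muscle (log2 change -2.49, 95% confidence interval -3.43 to -1.55, limma adjusted p = 5.8e-05). In Myogenin-Cre tumors the change from muscle was -0.76 (-1.97 to 0.45, limma adjusted p = 0.293) and was not called. The second kept probe of *Cpt1b* gave -2.96, -0.99 and 1.97 in the 3 comparisons, against -2.49, -0.76 and 1.73 for the first.

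*Cpt2* stood at 11.94, 11.96 and 12.02 in muscle, at 11.83, 11.09 and 11.61 in Myogenin-Cre tumors 41, 42 and 43, and at 10.04 to 11.02 with a median of 10.50 in aP2-Cre tumors. With this probe the 3 groups followed each other without overlap, muscle highest and aP2-Cre tumors lowest. The other 2 kept probes each had an overlap. With 1 of them Myogenin-Cre tumor 41 (11.18) stood above the lowest muscle array (11.10). With the other Myogenin-Cre tumor 42 (10.19) stood below aP2-Cre tumor 128 (10.47). The level in aP2-Cre tumors was 2.79-fold below muscle (limma adjusted p = 9.6e-08) and 2.02-fold below Myogenin-Cre tumors (limma adjusted p = 0.000384). The change of -0.47 between Myogenin-Cre tumors and muscle was not called (-0.90 to -0.03, limma adjusted p = 0.0727). Its 3 probes disagreed there, at -0.47, -0.76 and -0.34, and the limma fit of single probes called the second of them (adjusted p = 0.0151).

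The acyl-CoA dehydrogenases open each round, *Acadvl* on very long, *Acadl* on long and *Acadm* on medium chains. *Acadvl* had 12.37, 12.49 and 12.44 in muscle, 12.00, 11.11 and 11.97 in Myogenin-Cre tumors 41, 42 and 43, and 9.78 to 11.35 (median 10.51) in aP2-Cre tumors. *Acadl* had 9.77, 9.85 and 9.75 in muscle, 9.33, 8.79 and 9.45 in Myogenin-Cre tumors, and 7.34 to 8.80 (median 8.00) in aP2-Cre tumors. *Acadm* had 13.59, 13.84 and 13.67 in muscle, 13.20, 12.36 and 13.22 in Myogenin-Cre tumors, and 11.08 to 12.64 (median 11.84) in aP2-Cre tumors. For all 3 genes the muscle arrays stood above every tumor, Myogenin-Cre tumors 41 and 43 stood above every aP2-Cre tumor, and Myogenin-Cre tumor 42 fell within the upper range of the aP2-Cre tumors. The falls from muscle in aP2-Cre tumors were 3.84-fold for *Acadvl*, 3.54-fold for *Acadl* and 3.70-fold for *Acadm* (limma adjusted p = 7.4e-07, 3.43e-07 and 5.13e-07). Between Myogenin-Cre tumors and muscle the changes were -0.74, -0.60 and -0.78, of which that of *Acadm* was called (limma adjusted p = 0.0393, against 0.0611 for *Acadvl* and 0.088 for *Acadl*). For *Acadvl* the second probe, with -0.96 in that comparison, was called by the limma fit of single probes (adjusted p = 0.00577).

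The trifunctional protein carries the next steps for long chains, with *Hadha* as its alpha subunit (hydratase and dehydrogenase) and *Hadhb* as its beta subunit (thiolase). *Hadhb* had 12.47, 12.59 and 12.59 in muscle, 11.89, 10.98 and 11.48 in Myogenin-Cre tumors 41, 42 and 43, and 9.79 to 11.33 (median 10.36) in aP2-Cre tumors. *Hadha* had 7.47, 7.89 and 7.46 in muscle, 8.00, 7.16 and 8.01 in Myogenin-Cre tumors, and 5.51 to 6.85 (median 6.26) in aP2-Cre tumors. *Hadhb* thus stood below muscle in every tumor, whereas *Hadha* in Myogenin-Cre tumors spanned the muscle values and only the aP2-Cre tumors lay below them. *Hadhb* was 4.50-fold lower in aP2-Cre tumors (limma adjusted p = 6.87e-08) and 2.15-fold lower in Myogenin-Cre tumors than in muscle (limma adjusted p = 0.0046). *Hadha* was 2.69-fold lower in aP2-Cre tumors (limma adjusted p = 2.94e-05), and its change in Myogenin-Cre tumors was 0.12 (-0.54 to 0.77, limma adjusted p = 0.783). These are the neighbours that share the stretch printed above, and whether their changes differ from each other was not tested. The array has 1 *Hadha* probe. It targets a cDNA sequence that is not among the RefSeq transcripts of the gene, so which transcript it reads is not known here.

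Medium chains end their round at *Acaa2*, the matrix 3-ketoacyl-CoA thiolase. It stood at 11.29, 11.60 and 11.39 in muscle, at 10.29, 9.64 and 10.22 in Myogenin-Cre tumors 41, 42 and 43, and at 7.02 to 9.17 (median 8.22) in aP2-Cre tumors. No group overlapped another. Its 9.89-fold deficit in aP2-Cre tumors (log2 change -3.31, -3.93 to -2.68, limma adjusted p = 7.04e-09) was the largest of the 10 genes, and 0.553% of all genes changed as far down. It was 2.59-fold lower in Myogenin-Cre tumors than in muscle (limma adjusted p = 0.00589) and 3.81-fold higher in them than in aP2-Cre tumors (limma adjusted p = 0.000285). The 4 *Acaa2* probes gave -3.09 to -3.34 in aP2-Cre tumors and -1.33 to -1.37 in Myogenin-Cre tumors against muscle.

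Electrons of the first dehydrogenation reach the respiratory chain through *Etfdh*, the oxidoreductase of electron transfer flavoprotein. It had 10.78, 10.88 and 10.82 in muscle, 10.45, 9.48 and 10.43 in Myogenin-Cre tumors 41, 42 and 43, and 8.01 to 9.59 (median 8.74) in aP2-Cre tumors. Muscle lay above every tumor, and of the tumors only Myogenin-Cre tumor 42 overlapped with the other kind. The level was 4.29-fold lower in aP2-Cre tumors than in muscle (limma adjusted p = 4.42e-07), and the change of -0.71 in Myogenin-Cre tumors was not called (-1.40 to -0.01, limma adjusted p = 0.0849). A dimmer probe, which again targets a cDNA outside the RefSeq transcripts of its gene and was detected in 13 of 15 aP2-Cre tumors, gave -0.95, 0.26 and 1.21 in the 3 comparisons against -2.10, -0.71 and 1.39. Both kept probes of this kind, that of *Hadha* and this one, showed no fall in Myogenin-Cre tumors, and neither change was called. The 17 kept probes on RefSeq transcripts all had a log2 change below 0 there, of which 9 were called. The 2 probes were also the dimmest kept ones, with muscle means of 7.61 and 7.02 against 9.44 or more for the 17. Target and brightness therefore cannot be told apart.

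*Decr1*, the dienoyl-CoA reductase that prepares unsaturated chains, had 9.89, 9.92 and 10.03 in muscle, 9.55, 8.83 and 9.33 in Myogenin-Cre tumors 41, 42 and 43, and 7.69 to 8.58 (median 8.08) in aP2-Cre tumors. As for *Acaa2*, and for *Cpt2* by its brightest probe only, the 3 groups did not overlap. It was 3.59-fold lower in aP2-Cre tumors (limma adjusted p = 1.22e-08) and 1.64-fold lower in Myogenin-Cre tumors than in muscle (limma adjusted p = 0.0125).

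In the limma fit of single probes, 19 of 19 kept probes of these genes were lower in aP2-Cre tumors than in muscle, where 31.2% of all 16807 probes with a gene symbol were. In Myogenin-Cre tumors 9 of 19 were lower than in muscle, where 25.4% of all probes were. All 10 genes had every aP2-Cre tumor below every muscle array, which held for 22.9% of all genes, and 9 of 10 had every Myogenin-Cre tumor below every muscle array, which held for 30.4%. Within array set 1, where the 3 aP2-Cre tumors had been normalized with the muscle arrays, limma called all 10 genes lower, with changes of -1.12 (*Hadha*) to -3.09 (*Acaa2*). In that fit all 10 had an unadjusted p under 0.05, as had 7012 of all 11034 genes, in either direction. At most these 7012 genes can have been called lower there, and the share that was is not given here. Leaving out any 1 array of either group left all 10 called.

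Of the 4 calls against muscle in Myogenin-Cre tumors, 2 were lost when tumor 42 was left out. Limma then called 2 genes (*Hadhb* and *Acaa2*) and without tumor 41 it called 6, adding *Acadvl* and *Cpt2*. Without any 1 of the muscle arrays it called 3 genes, losing *Acadm*. With the array set as a covariate the count was 1, *Decr1*.

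**Figure D2:**
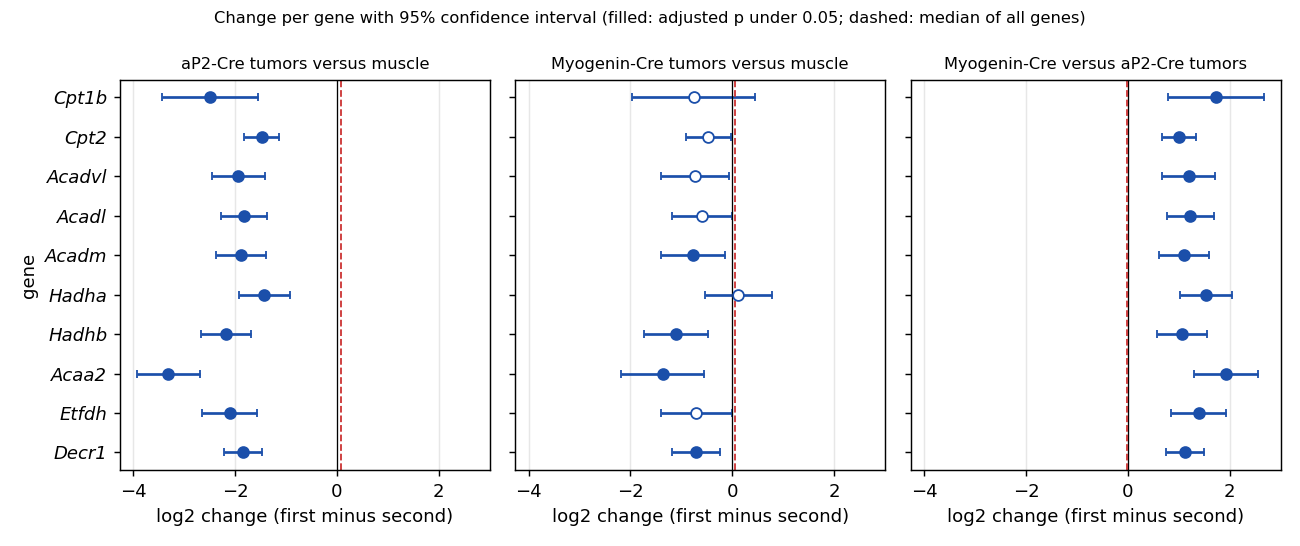
Log2 change of each gene in the 3 comparisons with its 95% confidence interval from limma; filled points have an adjusted p under 0.05 and the dashed line is the median of all genes. All 10 genes are called lower in aP2-Cre tumors than in muscle and higher in Myogenin-Cre than in aP2-Cre tumors, and 4 are called lower in Myogenin-Cre tumors than in muscle.

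The direct comparison of the tumors called all 10 genes higher in Myogenin-Cre tumors, with log2 changes of 1.01 (*Cpt2*) to 1.93 (*Acaa2*), 1.73 for *Cpt1b* and 1.54 for *Hadha* (limma adjusted p = 0.000384, 0.000285, 0.0139 and 0.000319). By the probe used for each gene, the tumors did not overlap for 4 genes (*Hadha*, *Cpt2*, *Acaa2* and *Decr1*) and did for 6. The overlap came through Myogenin-Cre tumor 42, which was the lowest of its group for all 10. By 1 other probe *Cpt2* overlapped too. Without Myogenin-Cre tumor 41, 8 genes were called (losing *Hadhb* and *Cpt1b*), and without tumor 43, 7 (losing *Acadm*, *Acadvl* and *Cpt1b*). Within array set 3, where 3 tumors of each kind had been normalized together, the changes were 1.02 to 1.74 and 9 of 10 genes did not overlap. How many of all genes did not overlap between the tumors, in that set or over all arrays, was not counted. In the fit of set 3 limma called 0 of 10 (adjusted p 0.0689 to 0.204). All 10 had an unadjusted p under 0.05 in that fit, as had 1839 of all 11034 genes. After adjustment that fit called 45 of 11034 genes. Macrophage genes moved the other way with the kind of tumor: 5 of 7 measured were lower in Myogenin-Cre tumors, and their summed linear level was 2003 to 3262 there and 4636 to 11923 in aP2-Cre tumors. Their part in the difference was not tested.

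Fat genes and genes of mature fibers were mostly lower in aP2-Cre tumors than in muscle, like the members. Slow fiber, macrophage and fibroblast genes were mostly higher in those tumors. White fat genes were lower for 6 of 6 measured in aP2-Cre tumors and 5 of 6 in Myogenin-Cre tumors, and their summed linear level was 12325 to 14683 in muscle, 6669 to 13375 in Myogenin-Cre tumors and 2139 to 6571 in aP2-Cre tumors. In Myogenin-Cre tumors 2 of 6 were called lower with the array set as a covariate, without *Adipoq*, *Lep* and *Cidec*. Brown fat genes summed to 49861 to 54912 in muscle, 20573 to 33332 in Myogenin-Cre tumors and 5804 to 27495 in aP2-Cre tumors. Most of the muscle sum came from genes of the list other than *Ucp1* and *Cidea*, whose highest log2 levels in muscle were 12.13 and 12.78. The sum therefore does not give the amount of brown fat. Of 7 measured, 5 were lower and 1 (*Dio2*) higher in aP2-Cre tumors than in muscle, against 4 and 0 with the array set as a covariate. In Myogenin-Cre tumors 3 of 7 were lower, against 2 with that covariate. *Plin1* was not detected in Myogenin-Cre tumors, *Dio2* was not detected in muscle or Myogenin-Cre tumors, and *Ppara* was not detected in any tumor. Of 11 measured genes of mature fibers 5 were called lower in Myogenin-Cre tumors than in muscle, and 0 were called between the tumors. They summed to 225605 to 236887 in muscle, 121096 to 127520 in Myogenin-Cre tumors and 59958 to 152327 in aP2-Cre tumors. Slow fiber genes went the other way, with 6 of 8 higher and 1 (*Myl3*) lower in aP2-Cre tumors and 5 higher and 1 lower in Myogenin-Cre tumors than in muscle (median log2 change 2.64 and 2.03). They summed to 14192 to 21360 in muscle, 63729 to 84601 in Myogenin-Cre tumors and 61962 to 103960 in aP2-Cre tumors, and *Myh7* was not detected in muscle. Against muscle, macrophage genes were higher for 7 of 7 in aP2-Cre tumors and 2 of 7 in Myogenin-Cre tumors (1 with the array set as a covariate), and fibroblast genes for 6 of 7 and 3 of 7. The part of fat, fiber, macrophage and fibroblast RNA in the changes of the 10 genes was not tested.

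The tumors of 1 kind also differed among themselves. Over the 15 aP2-Cre tumors *Cpt1b* spread most, with an SD of 0.86 and an 8.09-fold range, and *Decr1* had the narrowest range, 1.85-fold. Tumor 128 was the highest for 8 of the 10 genes and tumor 90 for *Hadha* and *Decr1*, while tumors 65, 115 and 174 were each the lowest for 3. Averaged over the 10 genes, tumor 128 stood 0.78 above the group mean, and tumors 115, 174 and 65 stood at -0.65, -0.61 and -0.49 from it. The 45 pairs of these genes had a median Pearson r of 0.73 over the 15 tumors, from 0.00 (*Hadha* and *Decr1*) to 0.95 (*Acadvl* and *Cpt1b*), and of 0.88 once values were centered within array sets. *Hadha* differed between sets, with means of 6.49, 6.18, 6.68, 5.72 and 5.84 in aP2-Cre tumors of sets 1 to 5.

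Genes from outside the list were set beside each member over the 15 aP2-Cre tumors: *Ckm* (creatine kinase of mature fibers), *Cs* (citrate synthase, a general mitochondrial enzyme) and *Adipoq*. Each pair of values comes from 1 array. How many of all genes would pass the same tests is not given here, so the counts below do not set the members apart from other genes. Of 30 relations tested by 100000 permutations and adjusted over all 30, 7 of 10 passed with *Ckm* by Pearson r (0.42 to 0.86) and 6 by Spearman rho (0.34 to 0.86). After centering within array sets 9 of 10 passed with *Ckm* by r, with *Decr1* (permutation adjusted p = 0.0003) and *Hadhb* (permutation adjusted p = 0.0009) added. With *Cs*, 9 of 10 passed by r (0.23 to 0.84) and 6 by rho (0.10 to 0.79). After centering 7 of 10 passed with *Cs*, and *Hadha* (permutation adjusted p = 0.633) and *Cpt2* (permutation adjusted p = 0.128) were lost. *Decr1* passed with *Cs* neither before centering (permutation adjusted p = 0.438) nor after it (0.0609). The permutations after centering, for all 3 genes, ran across the 15 tumors and not within sets. Their p-values may therefore be too small and the counts that passed after centering too high. With *Adipoq* 0 of 10 passed, and 0 had an unadjusted permutation p under 0.05 by r (0.19 to 0.46) or by rho (0.13 to 0.50). *Cpt1b* and *Ckm* were the closest pair, with r = 0.86 (permutation adjusted p = 0.0012) and rho = 0.81 (permutation adjusted p = 0.00525), and r was 0.80 without tumors 90 and 115, the farthest in *Ckm*. For *Decr1* and *Ckm* r was 0.50 (permutation adjusted p = 0.0916), and it fell to 0.25 without those tumors. Without tumors 128 and 174, the farthest in *Cs*, r with *Cs* ran from 0.17 to 0.69. Each array set holds 3 aP2-Cre tumors, too few for an r of its own, and after centering within sets r ran from 0.47 to 0.89 with *Ckm*, from 0.18 to 0.82 with *Cs* and from -0.10 to 0.31 with *Adipoq*.

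**Figure D3:**
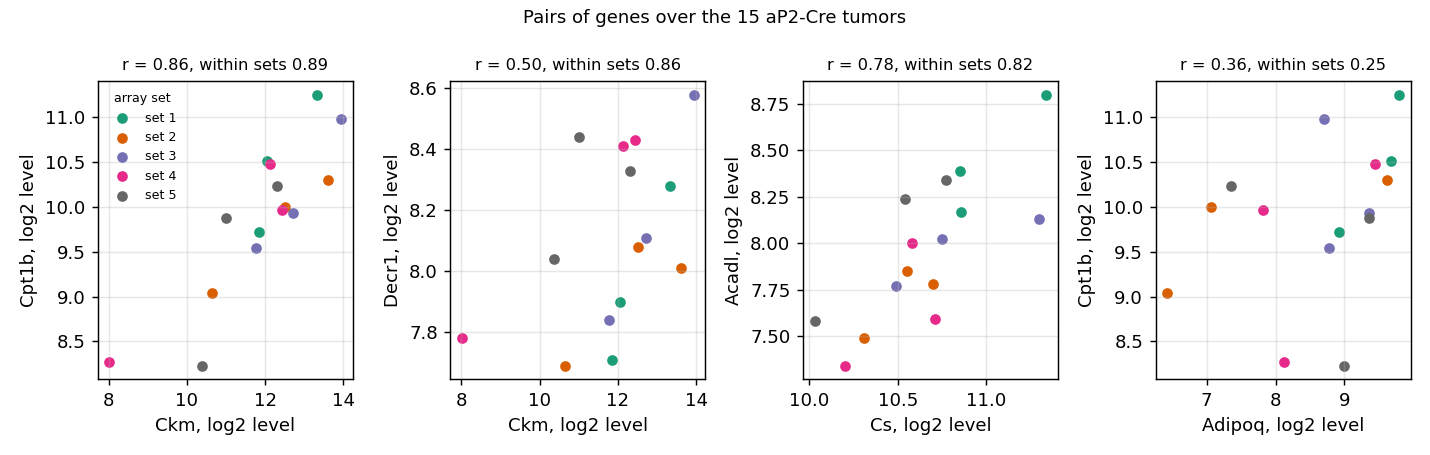
Levels (log2) of 4 pairs of genes over the 15 aP2-Cre tumors, 1 point per tumor, colored by the set of arrays that the authors normalized together. *Cpt1b* rises with *Ckm* (r = 0.86, 0.89 within sets), *Decr1* less so (0.50, 0.86 within sets), *Acadl* rises with *Cs* (0.78), and *Cpt1b* is spread over *Adipoq* (0.36).

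The gene whose pattern over the 15 aP2-Cre tumors was most like the mean of the 10 scaled genes was *Eci1*, the enoyl-CoA isomerase of the same pathway, with r = 0.977. It was followed by *Tnxb* (0.955), *Slc25a34* (0.953), *Gnpat* (0.94) and the complex I subunits *Ndufb7* (0.938) and *Ndufb5* (0.937). With values centered within array sets the first 6 were *Uqcrc1*, a subunit of complex III (0.983), *Kif1c* (0.981), *Vegfb* (0.976), *Eci1* (0.975), *Acacb* (0.971) and *Atp5o*, a subunit of ATP synthase (0.971). *Eci1* is the gene that both lists of 6 hold. Many genes were closer to the members than those tested above. *Ckm* ranked 200 (r = 0.819), *Cs* 264 (0.795) and *Adipoq* 2327 (0.391). With values centered within array sets they ranked 201 (0.867), 782 (0.695) and 3840 (0.179).

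Among other genes of the pathway, the matrix enzymes moved with the members. All 10 measured were lower in aP2-Cre tumors than in muscle (median log2 change -1.38), 7 of 10 were lower in Myogenin-Cre tumors (median -0.75) and 7 of 10 were higher in Myogenin-Cre than in aP2-Cre tumors (median 0.89). *Etfb*, which carries electrons to *Etfdh*, changed by -2.05, -0.80 and 1.25 in the 3 comparisons (limma adjusted p = 1.03e-08, 0.0109 and 0.000257). *Eci1* changed by -2.23, -0.83 and 1.40 (limma adjusted p = 2.1e-07, 0.0467 and 0.00131). *Acot2*, a matrix thioesterase, changed by -0.99 between aP2-Cre tumors and muscle and by 1.51 between the tumors (limma adjusted p = 0.00104 and 0.000293), and its change of 0.53 against muscle in Myogenin-Cre tumors was not called. *Acad9* changed by -1.34 and -1.48 in aP2-Cre and Myogenin-Cre tumors against muscle, both called by limma. *Hadh* was detected in 3 of 3 muscle arrays, 1 of 15 aP2-Cre tumors and 1 of 3 Myogenin-Cre tumors, so the size of its fall was not measured. With the array set as a covariate 3 of the 10 were called lower in Myogenin-Cre tumors.

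Genes of uptake, activation and carnitine transfer were split. Of 10 measured, 5 were lower and 3 higher in aP2-Cre tumors than in muscle, 3 lower and 2 higher in Myogenin-Cre tumors, and 5 higher and 2 lower in Myogenin-Cre than in aP2-Cre tumors. Of the 2 higher in Myogenin-Cre tumors 1, *Cpt1c*, was detected on 0 of 3 arrays of that group and 0 of 3 of muscle, so that call sets one background level against another. The carnitine carrier *Slc25a20* changed by -1.92, -0.68 and 1.23, and the carnitine acetyltransferase *Crat* by -2.51, -0.96 and 1.55, all called by limma. The fatty acid transporter *Slc27a1* changed by -2.38 in aP2-Cre tumors (limma adjusted p = 4.89e-06) and by -0.34 in Myogenin-Cre tumors, which was not called. Opposite in sign was *Acsl3*, an acyl-CoA synthetase of lipid droplets, higher than in muscle by 1.66 in aP2-Cre and by 0.96 in Myogenin-Cre tumors (limma adjusted p = 4.62e-08 and 0.00128). *Cd36* and *Cpt1a*, the liver form of the shuttle enzyme, have probes that were detected on 0 arrays. Centered on array medians in place of quantile normalization, 0 of the 10 were called lower in Myogenin-Cre tumors. With the array set as a covariate 3 were called higher and 1 lower between the tumors, and *Crat* lost its call there and in Myogenin-Cre tumors against muscle.

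Regulators were lower for 9 of 11 measured in aP2-Cre tumors and for 6 of 11 in Myogenin-Cre tumors than in muscle, and 3 of 11 were higher in Myogenin-Cre than in aP2-Cre tumors. *Pparg*, the regulator of fat cells, changed by -3.06, -1.83 and 1.23 (limma adjusted p = 2.99e-10, 2.95e-05 and 0.00121). *Ppargc1a* changed by -2.14 in aP2-Cre tumors (limma adjusted p = 0.000945), by -0.77 in Myogenin-Cre tumors and by 1.37 between the tumors, the last 2 not called. *Esrra*, the main ERR of oxidative tissue, was lower than in muscle in both, by -1.28 and -1.02 (limma adjusted p = 3.85e-07 and 0.000281). *Ppara* was not well above background in any tumor, so it was at least 1.94-fold lower in aP2-Cre and at least 1.78-fold lower in Myogenin-Cre tumors than in muscle, each bound set against the lowest detected level of an array. *Acacb* and *Mlycd*, which make and remove the malonyl-CoA that inhibits Cpt1, changed by -2.42 and -1.45 in aP2-Cre tumors and by -0.46 and 0.02 in Myogenin-Cre tumors, the last 2 not called. Both were higher in Myogenin-Cre than in aP2-Cre tumors, by 1.96 and 1.47 (limma adjusted p = 0.00523 and 0.00258). With the array set as a covariate *Mlycd* was the 1 regulator still called between the tumors.

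PPAR targets outside the pathway were lower for 4 of 5 measured in aP2-Cre tumors than in muscle and higher for 4 of 5 in Myogenin-Cre than in aP2-Cre tumors. *Plin5*, a lipid droplet protein, had the widest changes, -3.41 against muscle and 2.91 between the tumors (limma adjusted p = 3.71e-05 and 0.00281). *Pdk4*, a brake on glucose oxidation, changed by 2.08 between the tumors (limma adjusted p = 0.0141), with -0.99 and 1.08 against muscle not called. With the array set as a covariate limma called 0 of these 5 between the tumors. *Fabp4*, whose promoter drove the Cre of the aP2-Cre tumors, has 1 probe, which was detected on 0 arrays.

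Peroxisomes shorten very long chains with their own enzymes, and 5 of 9 measured were lower in each kind of tumor than in muscle and 1 of 9 was higher in Myogenin-Cre than in aP2-Cre tumors. Enzymes of ketone body use were lower for 3 of 3 in aP2-Cre and 2 of 3 in Myogenin-Cre tumors, with *Oxct1* at -1.40 and -1.85 (limma adjusted p = 1.24e-08 and 3.26e-08). Fatty acid synthesis was split, with 3 of 8 lower and 1 higher in aP2-Cre tumors and 4 lower and 2 higher in Myogenin-Cre tumors. *Scd1*, which desaturates fatty acids, changed by -2.95 and -3.80, and *Elovl1*, which lengthens very long chains, by 1.99 and 1.82, all called by limma. General mitochondrial proteins were lower for 11 of 11 in aP2-Cre tumors (median -0.90) and 9 of 11 in Myogenin-Cre tumors (median -0.72), and 2 of 11 were higher in Myogenin-Cre than in aP2-Cre tumors (*Cs* by 0.90 and *Phb2* by 0.51). Centered on array medians, 5 of 11 were lower in Myogenin-Cre tumors and 0 of 11 were called between the tumors. Between the tumors 1 of 11 was called with the array set as a covariate, without *Cs*, and 0 of the 9 peroxisomal genes. In Myogenin-Cre tumors against muscle that fit called 1 ketone body enzyme lower and 1 gene of fatty acid synthesis higher.

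**Figure D4:**
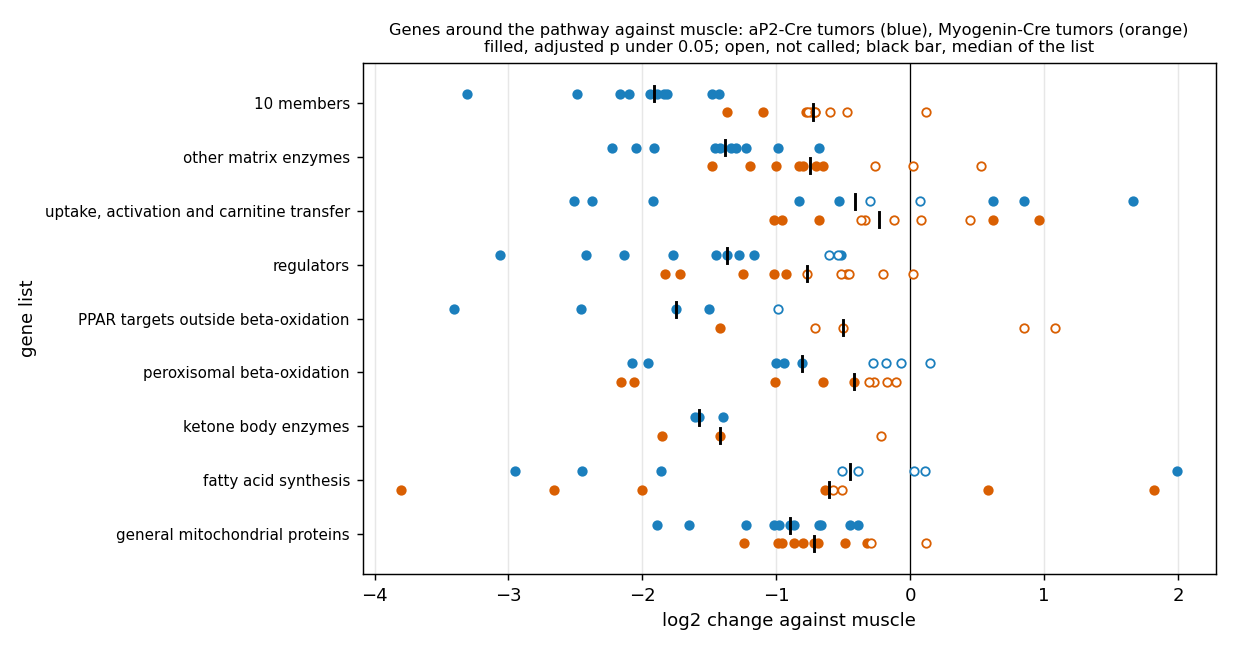
Log2 change against muscle of each measured gene of 9 lists, for aP2-Cre tumors (blue) and Myogenin-Cre tumors (orange), with filled points called by limma and a black bar at the median of each list. The 10 members have medians of -1.91 and -0.73, the other matrix enzymes -1.38 and -0.75, and general mitochondrial proteins -0.90 and -0.72.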

How the data were processed

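RNA of 21 samples was read on mouse bead arrays. The table of values without normalization that the authors deposited gives, for every probe on every array, a linear intensity and a detection p-value. Their other deposited table gives intensity values after quantile normalization, done apart in 5 sets of arrays, as the value distributions that arrays share show. The submitters' processing notes name BeadStudio, and further upstream steps are not given here. For Myogenin-Cre tumor 42, 1 column label has 2 letters swapped, and its number was used to match it.

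Intensities were background-corrected by normexp, with the negative control parameters taken from detection p-values and an offset of 16, and quantile normalized (neqc, limma 3.58.1, R 4.3.3). Probes detected at p under 0.01 on at least 3 arrays were kept. For each of 11034 genes the probe with the highest mean was used. Of 45281 probes, 34885 carry 1 symbol, 18 several and 10378 none, and 34807 matched a RefSeq gene.

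Groups were compared in 1 limma model over all arrays (eBayes with trend, two-sided, Benjamini-Hochberg). Where no array of a group detected a gene, its fold is a bound. Relations over tumors used Pearson r and Spearman rho with 100000 permutations. The fit was tested on simulated data. Alternatives covered background correction, scaling, the authors' values, filters, probe choice, array sets, array weights, the variance trend and left-out arrays, of which leaving out 14 of the aP2-Cre tumors, 1 at a time, was added after seeing the data. The members, the pathway lists and the cell type markers were chosen with earlier results of these data known. Named were all members, listed genes of the pathway and the 6 genes of most similar pattern. The number of arrays limits the precision.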

Additional observations from a re-analysis of the deposited data

Results flagged for a closer look

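The change from muscle differed between the 2 kinds of tumor for all 10 genes, by the limma test of the difference itself, and in each case Myogenin-Cre tumors stood higher. The log2 difference was 1.73 for *Cpt1b*, 1.01 for *Cpt2*, 1.20 for *Acadvl*, 1.23 for *Acadl*, 1.11 for *Acadm*, 1.54 for *Hadha*, 1.07 for *Hadhb*, 1.93 for *Acaa2*, 1.39 for *Etfdh* and 1.13 for *Decr1*. Both changes use the same 3 muscle arrays, which cancel in the difference. Within the set of arrays that holds both kinds of tumor, the differences were 1.02 to 1.74 and limma called 0 of 10. In that fit 10 of 10 had an unadjusted p under 0.05, as had 1839 of all 11034 genes.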

How the results depend on the processing

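All 10 genes were called lower in aP2-Cre tumors than in muscle under each of 28 alternatives for single values and in the fit of single probes, with log2 changes of -3.38 to -0.65. Centering on array medians instead of quantile normalization moved the median change of all genes from 0.09 to 0.44 in that comparison, from 0.06 to 0.25 between Myogenin-Cre tumors and muscle and from -0.01 to -0.17 between the tumors. Calls over all genes then went from 3757 higher and 3285 lower to 5063 and 1722, from 2778 and 2635 to 2942 and 1398, and from 847 and 891 to 226 and 1035.

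Between Myogenin-Cre tumors and muscle 4 genes were called, 2 with median centering and 1 with the array set as a covariate. Leaving out 1 array of either group gave 2 to 6, the lowest without Myogenin-Cre tumor 42. The other alternatives gave 3 to 6. Between the tumors 10 genes were called, 0 within the set that holds both kinds, 8 with the set as a covariate and 10 in the other fits over all arrays. Leaving out 1 array gave 7 to 10. Of 150 single values for Myogenin-Cre tumors against muscle, 12 lost and 7 gained a call, and of 280 between the tumors 17 lost one. Single log2 changes kept their sign in all 280 values of the comparison between tumors and in the 280 of aP2-Cre tumors against muscle; in Myogenin-Cre tumors against muscle *Hadha*, which was not called, ran from -0.08 to 0.47. No paired analysis was possible because the groups share no replicate numbers. The group sizes of 3 and the dim *Hadha* probe, 5.51 to 8.01 where the muscle arrays' lowest detected level was 5.56 to 5.80, limit the precision.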
